A study of Homo sapiens with 4 samples.

Results

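SAF-A siRNA and control siRNA were compared after 24 h in RPE1 cells, a line of human retinal pigment epithelial cells immortalised with telomerase. The series holds 4 RNA-seq libraries, 1 for each per combination of siRNA (control or SAF-A) and time (24 h or 48 h). All 4 cultures received 10 nM Stealth siRNA with Lipofectamine RNAi MAX, and RNA was depleted of ribosomal RNA before library preparation. The SAF-A arm rests on 1 siRNA sequence. Each group has 1 library, so differences are described without tests, and no spread between cultures is known. The genes described are the 7613 of 25027 symbols or identifiers whose longest spliced transcript had at least 300 nt and whose mean FPKM in both 24 h libraries was at least 5. FPKM is the number of fragments mapped to a transcript, scaled by transcript length and library size. Of these genes, 7320 were protein-coding, 84 were long noncoding RNAs, 112 were transcribed pseudogenes and 87 identifiers had no symbol. Just inside the level threshold were PHF13 (5.13 FPKM with control and 4.88 with SAF-A siRNA) and LSM11 (5.51 and 4.49), and just outside were VAMP5 (5.41 and 4.59) and SCAF11 (5.48 and 4.52).

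SAF-A, also called hnRNP U and is encoded by HNRNPU and binds both DNA and RNA in the nucleus. It associates with nascent RNA and with chromatin, helps keep the long noncoding RNA XIST on the inactive X chromosome, and takes part in pre-mRNA splicing. An siRNA is a short RNA duplex whose antisense strand is loaded into an Argonaute protein and directs cleavage of a fully complementary message. The seed, bases 2 to 8 of the loaded strand, is also known to pair with short sites in the 3′ untranslated regions (3′ UTRs) of other messages, much as a microRNA does, and this pairing can lower their levels.

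The implied depth was 28083822 mapped reads for control siRNA 24 h, 30701282 for SAF-A siRNA 24 h, 28586051 for control siRNA 48 h and 1216740 for SAF-A siRNA 48 h. The SAF-A 48 h library therefore stands apart, and its values are given beside the 24 h values as a shallow further pair that shares no library with the 24 h pair. In the 24 h libraries a described gene had a median of 1240 and 1290 estimated reads. RNAs under 300 nt held 60.2% of all FPKM in the control and 63.8% in the SAF-A 24 h library, and the described genes held 38.7% and 35.3%. VIM (2145 and 1845 FPKM), KRT18 (142 and 124) and CDH2 (66.7 and 68.4) were expressed in the control and SAF-A 24 h libraries. Of 18 pigment epithelial and epithelial markers, 7 reached 1 FPKM in each 24 h library, and RPE65, TTR, TYR and CDH1 were listed at 0 in both. None of 8 blood markers and none of 8 neural and muscle markers reached 1 FPKM; their summed levels were 0.245 and 0.210 FPKM for blood and 1.31 and 1.28 FPKM for neural and muscle genes.

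The siRNA sequence is shown because its target and its seed are referred to in the text that follows. Both strands are written 5′ to 3′ as DNA; capitals mark bases 2 to 8 of the antisense strand and the matching bases of the sense strand.
SAF-A siRNA sense strand: cctgggaatcgtggcggATATAATa
SAF-A siRNA antisense strand: tATTATATccgccacgattcccagg
The sense strand matched HNRNPU once without mismatch, at chr1:245018884-245018908 on the minus strand (hg19), within exon 12 of 14. No other described gene had a run of 15 or more bases complementary to the antisense strand in its longest transcript. The next longest runs had 14 bases and lay in GCN1, an activator of the amino acid starvation kinase GCN2, and in TLN1, which links integrins to actin. At 24 h GCN1 measured 23.8 FPKM with control and 18.8 with SAF-A siRNA, a log2 change of -0.32. TLN1 measured 63.5 and 58.8 FPKM, a log2 change of -0.11. The sequence of the control siRNA is not given in the sources used here, so no gene was compared with it.

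HNRNPU, the targeted gene, measured 91.2 FPKM in the control and 10.4 FPKM in the SAF-A library of the 24 h pair, and 84.6 and 9.24 FPKM in the 48 h pair. Both SAF-A libraries were low. Their gene intervals, the sums of the deposited 95% bounds of the transcripts, lay far below those of both controls. The 24 h level was 11.4% of control, with a range of 9.98% to 13% from the ends of these gene intervals. The 48 h level was 10.9%. Both deposited HNRNPU transcripts were lower at 24 h: NM_004501 measured 71.1 and 7.54 FPKM and NM_031844 measured 20.1 and 2.89 FPKM. The deposited intervals cover uncertainty within a library and not differences between cultures.

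With HNRNPU at about this level, most genes were close to their control value at 24 h. The log2 change, the difference of log2(FPKM + 1) between SAF-A and control siRNA, had a median of -0.07 and an SD of 0.24 over the 7613 genes, and 97.8% of genes lay within 1.5-fold. Of all described genes, 2645 lay above 0 and 4968 below, against which the sign counts of lists given further on are to be read. At least 2-fold higher were 24 genes (0.315% of those described) and at least 2-fold lower were 9 (0.118%). Rescaled to a common total over all transcripts (TPM), which lowered the median of all described genes by 0.17 on the log2 scale, these counts were 14 and 18. At 1.5-fold, 96 genes were higher (1.26%) and 73 were lower (0.959%). Where the gene intervals, summed from the deposited 95% bounds of the transcripts, must not overlap as well, it was 95 (1.25%) and 69 (0.906%). Between the control 48 h and control 24 h libraries the SD was 0.28, and 19 genes were 2-fold or more higher (0.25%) and 30 were 2-fold or more lower (0.394%) at the later time. That comparison shares the control 24 h library with the siRNA comparison, so its calls are not independent of it. Between SAF-A and control siRNA at 48 h the SD was 1.06, with 15.5% of genes higher and 18.2% lower by 2-fold or more, in a pair whose SAF-A library held 1216740 reads.

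**Figure D1:**
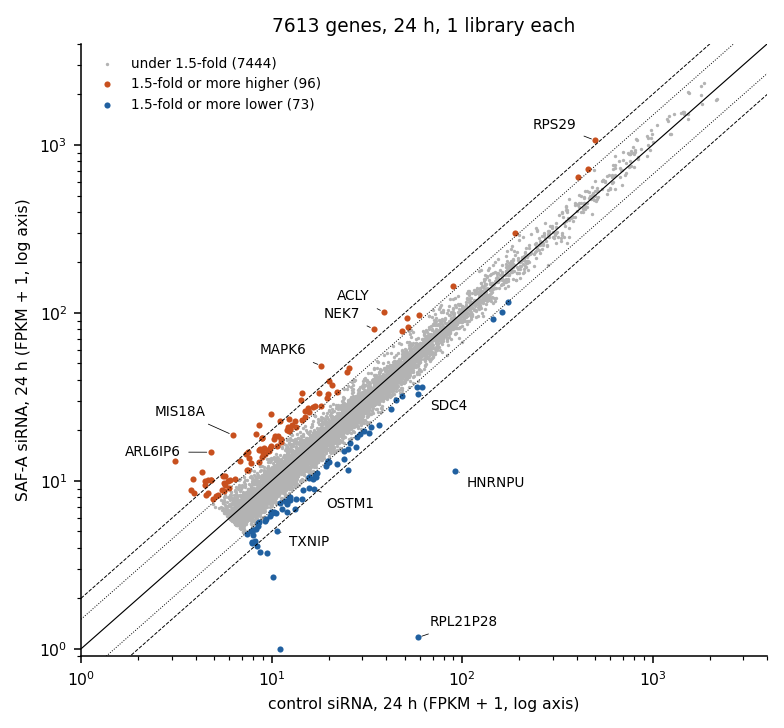
Levels of the 7613 genes at 24 h, control siRNA on the x axis and SAF-A siRNA on the y axis, both as FPKM + 1 on log axes, 1 library each. Solid, dotted and dashed lines mark equality, 1.5-fold and 2-fold; most points hug the diagonal, and HNRNPU lies apart at 91.2 against 10.4 FPKM.

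The 15 named genes that were highest relative to control at 24 h are described one by one. ACLY, the enzyme that makes cytosolic acetyl-CoA for fatty acid and sterol synthesis, measured 37.9 FPKM with control and 100.1 with SAF-A siRNA at 24 h, and 25.7 and 150.0 at 48 h. Both SAF-A libraries were above both controls for ACLY, with log2 changes of 1.38 and 2.50. MAPK6, the atypical kinase ERK3, measured 17.3 and 47.4 FPKM at 24 h and 9.42 and 48.8 at 48 h, log2 changes of 1.40 and 2.26. NEK7, a kinase of mitotic spindle assembly that also serves the NLRP3 inflammasome, measured 33.4 and 79.0 FPKM at 24 h and 4.83 and 39.1 at 48 h. For NEK7 the control itself was far lower at 48 h than at 24 h, and the SAF-A library was the higher of its pair at both times (log2 changes of 1.22 and 2.78). SMAD5, a signal transducer of bone morphogenetic proteins, measured 7.32 and 18 FPKM at 24 h and 2.77 and 11.7 at 48 h. For SMAD5 both SAF-A values exceeded both control values.

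ARL6IP6 had the largest log2 change above 0 among the named genes, at 3.79 and 13.8 FPKM at 24 h and 1.48 and 5.63 at 48 h, log2 changes of 1.63 and 1.42. MIS18A, part of the complex that primes centromeres for CENP-A loading, measured 5.26 and 17.7 FPKM at 24 h and 2.46 and 6.61 at 48 h. The 48 h values of ARL6IP6 and MIS18A with SAF-A siRNA rest on about 16 and 11 reads, and their 48 h intervals overlapped. PLEKHA1, a phosphoinositide-binding adaptor, measured 3.33 and 10.4 FPKM at 24 h and 3.62 and 9.86 at 48 h. The PLEKHA1 controls lay close together and both SAF-A libraries were high. MIGA1, a mitochondrial fusion factor, measured 2.78 and 7.78 FPKM at 24 h and 1.46 and 8.76 at 48 h. AKIRIN1, a nuclear protein, measured 13.5 and 32.5 FPKM at 24 h and 7.96 and 24.9 at 48 h. For MIGA1 and AKIRIN1, as for MIS18A, ACLY and MAPK6, the SAF-A value was above both controls at each time.

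The growth factor gene FGF5, the RNA-binding protein gene RBMS1 and KCTD20 were higher at 24 h with smaller differences at 48 h. FGF5 measured 2.86 and 9.20 FPKM at 24 h and 1.38 and 1.76 at 48 h. RBMS1 measured 7.60 and 20.5 FPKM at 24 h and 6.63 and 8.68 at 48 h. KCTD20 measured 8.94 and 24.0 FPKM at 24 h and 8.84 and 11.3 at 48 h. The deposited intervals of the 48 h pair overlapped for these genes, so the 48 h library pair does not separate them.

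RPS29, a protein of the small ribosomal subunit, was the most abundant gene past 2-fold, at 498 FPKM in the control and 1064 in the SAF-A library of 24 h, and at 921 and 360 in those of 48 h. Its order was opposite at the later time. SCHIP1 measured 3.67 and 9.17 FPKM at 24 h and TICAM2, an adaptor of Toll-like receptor 4, measured 2.90 and 7.42, and both share exons on the same strand with a readthrough gene. Summed with the readthrough gene, SCHIP1 measured 21.4 and 26.7 FPKM and TICAM2 measured 8.02 and 7.88, so that neither sum was past 1.5-fold.

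Of the 24 genes at least 2-fold higher at 24 h, 22 were also above control at 48 h and 15 were at least 2-fold higher there. Of all described genes, 49.1% were above control at 48 h and 15.5% were at least 2-fold higher. Of the 96 genes at least 1.5-fold higher, 80 were above control at 48 h, with a median log2 change of 0.99. These counts include 5 of the 24 and 13 of the 96 whose sum with overlapping same-strand rows was under 1.5-fold higher at 24 h. In 17 of the 24 and 69 of the 96 the control itself was lower at 48 h than at 24 h, against 45.8% of all described genes. Those control values share the library that chose the genes.

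**Figure D2:**
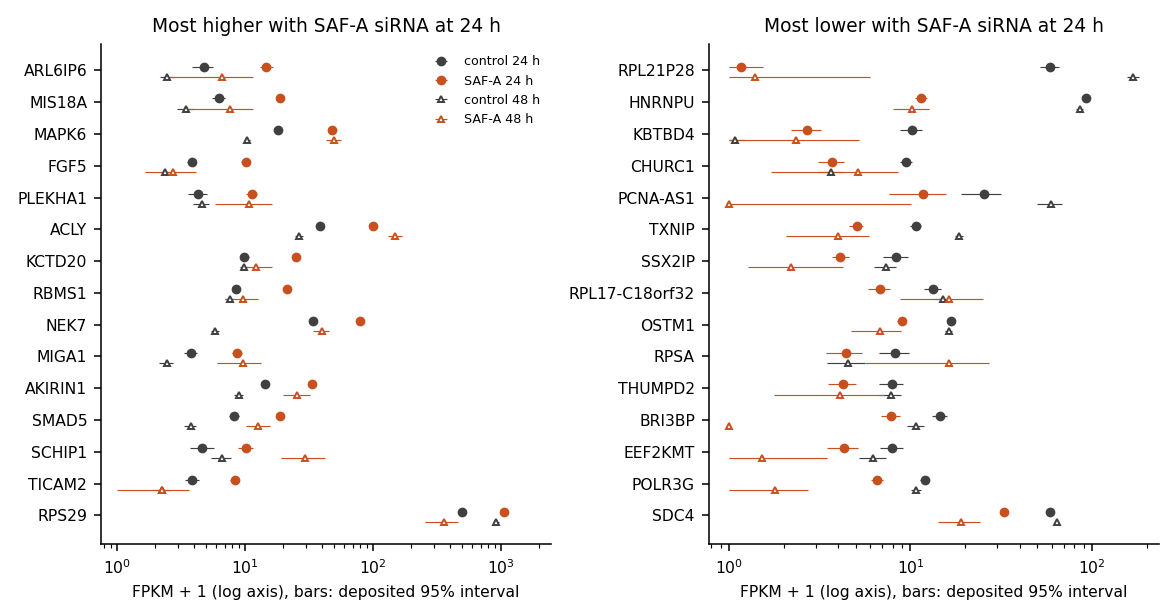
FPKM + 1 on a log axis of the 15 genes most higher (left) and most lower (right) with SAF-A siRNA at 24 h, in all 4 libraries. Circles are 24 h, triangles 48 h, grey control and orange SAF-A siRNA. Bars are the deposited 95% bounds of the transcripts within a library, summed per gene. ACLY, MAPK6 and NEK7 show the SAF-A library above its control at both times, and HNRNPU, TXNIP and SDC4 below it at both times.

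The named genes that were lowest relative to control at 24 h, apart from HNRNPU, are described next. TXNIP, the thioredoxin-binding protein that restrains glucose uptake, measured 9.67 FPKM with control and 4.04 with SAF-A siRNA at 24 h, and 17.4 and 2.99 at 48 h. Both SAF-A libraries were below both controls for TXNIP, with log2 changes of -1.08 and -2.21. SSX2IP, a centrosomal protein that anchors microtubules, measured 7.37 and 3.11 FPKM at 24 h and 6.32 and 1.19 at 48 h. OSTM1, a partner of the lysosomal chloride transporter ClC-7, measured 15.8 and 7.94 FPKM at 24 h and 15.2 and 5.78 at 48 h. SDC4, the cell surface heparan sulphate proteoglycan syndecan 4, measured 58.0 and 31.9 FPKM at 24 h and 63.3 and 18.1 at 48 h. For SSX2IP, OSTM1 and SDC4 the controls differed little between times and both SAF-A values lay below them.

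POLR3G, a subunit of RNA polymerase III, measured 11 and 5.54 FPKM at 24 h and 9.74 and 0.80 at 48 h. EEF2KMT, a methyltransferase of elongation factor 2, measured 6.94 and 3.31 FPKM at 24 h and 5.25 and 0.523 at 48 h. THUMPD2 measured 6.91 and 3.26 FPKM at 24 h and 6.77 and 3.07 at 48 h. BRI3BP measured 13.5 and 6.80 FPKM at 24 h and 9.76 FPKM in the control at 48 h, and was listed at 0 with SAF-A siRNA at 48 h. All 4 genes were lower in the SAF-A library of each pair, and the 48 h values of POLR3G, EEF2KMT and THUMPD2 with SAF-A siRNA rest on about 3.00, 1.32 and 8.01 reads. The 48 h intervals of THUMPD2 overlapped.

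Several of the lowest genes lost their difference when overlapping transcripts were added. RPL21P28 measured 57.8 and 0.168 FPKM at 24 h and 168 and 0.389 at 48 h, yet its sum with RPL21, which shares its exons, was 246 and 300 FPKM at 24 h. KBTBD4 measured 9.15 and 1.68 FPKM, and 9.34 and 9.42 with an overlapping transcript that has no symbol. CHURC1 measured 8.42 and 2.70 FPKM, and 8.42 and 9.37 with the overlapping transcript. RPL17-C18orf32 measured 12.3 and 5.76 FPKM and its sum with C18orf32 measured 21.7 and 23.3. RPSA, another small-subunit protein, was split in the same manner: its symbol row measured 7.22 and 3.41 FPKM and the sum with its main transcript 624 and 608. For these genes the locus total stayed within 1.5-fold at 24 h. At 48 h the locus totals had log2 changes of -1.15 for RPL21P28, -1.43 for RPSA, 0.91 for CHURC1, 0.53 for RPL17-C18orf32 and -0.20 for KBTBD4.

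PCNA-AS1 measured 24.3 and 10.7 FPKM at 24 h and 58.2 FPKM in the control at 48 h, and was listed at practically 0 with SAF-A siRNA at 48 h. It lies antisense to PCNA, the replication clamp, which measured 212 and 174 FPKM at 24 h, and since the library kit is not stated to keep strand, reads of the pair cannot be told apart. As locus totals, 19 of the 24 genes at least 2-fold higher and 4 of the 9 at least 2-fold lower were past 2-fold. The 4 were HNRNPU, PCNA-AS1, TXNIP and SSX2IP. All of these had no overlapping same-strand row, so their locus total was their own value and could not differ. Such a row was present for 5 of the 24 and 5 of the 9, and each of them fell short of 2-fold. Past 1.5-fold as locus totals were 83 of the 96 and 62 of the 73. Here 13 of the 96 had such a row and all fell short, and 13 of the 73 had one, of which BRD9 and RCC1 stayed past 1.5-fold. Of the 73 genes at least 1.5-fold lower at 24 h, HNRNPU and rows of split loci among them, 7 were above control at 48 h. Of all described genes, 49.1% were. At least 2-fold lower at 48 h were 53 of the 73, against 18.2% of all described genes.

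The genes past 1.5-fold were next described by short sequences in their 3′ UTRs. Among 7187 described genes other than HNRNPU whose annotated 3′ UTR had 50 nt or more, 88 were higher and 61 were lower by 1.5-fold or more at 24 h. All 7-mers found in at least 50 genes, 15894 in number, were ranked by how far the share of higher or of lower genes holding them on the sense strand exceeded the share of all 7187 genes. The ranking used the 24 h changes, so the 24 h shares describe how the 7-mers were chosen. Among the lower genes the first rank went to ATATAAT, which is the sequence that pairs with bases 2 to 8 of the SAF-A siRNA antisense strand. It lay in the 3′ UTR of 30 of the 61 lower genes (49.2%), against 19.9% of all genes and 30.7% of the higher genes. The median 3′ UTR length was 1793 nt in the lower genes, 2370.5 nt in the higher genes and 1243 nt in all genes. TTCCCAG, the match to bases 2 to 8 of the sense strand, lay in 14.8% of the lower genes against 19.6% of all genes and ranked 14864th. Among the higher genes the first rank went to ACATTTA, found in 59 of 88 (67.0%) against 21.8% of all genes. TACATTT, which overlaps it by 6 bases, ranked next, with 69.3% against 26.4%.

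Sites in genes named in the text are printed to show both 7-mers in their surroundings, with hg19 coordinates and strand, read 5′ to 3′ along the message; capitals mark the 7-mer. The following genes were higher and hold ACATTTA in the 3′ UTR.
ARL6IP6, chr2:153616771-153616797, plus strand: tcttatttatACATTTAggaaagcaaa
MAPK6, chr15:52357200-52357226, plus strand: cactcagcagACATTTAtctttgtatt
ACLY, chr17:40023664-40023690, minus strand: agggaatgaaACATTTAtggcctcaag
NEK7, chr1:198289189-198289215, plus strand: tatttgagaaACATTTAgaactcttag
SMAD5, chr5:135513756-135513782, plus strand: cataaaatttACATTTAatacagataa
TGFBR1, chr9:101912704-101912730, plus strand: gacatgaattACATTTAaaattagaat
The next genes were lower and hold ATATAAT in the 3′ UTR.
TXNIP, chr1:145442147-145442173, plus strand: gtacagaattATATAATtctaacgctt
OSTM1, chr6:108365481-108365507, minus strand: tcacaataatATATAATtcagtctcta
POLR3G, chr5:89808337-89808363, plus strand: ctgaaagttgATATAATacagcacgtg
SDC4, chr20:43954819-43954845, minus strand: agatcccaaaATATAATgaaggggatg
TNRC6A, chr16:24836738-24836764, plus strand: atttcttcagATATAATaaaccatgac
ACLY, NEK7 and MIS18A each hold 3 ACATTTA sites and MIGA1 holds 4. Of the 15 named higher genes, RBMS1, SCHIP1 and RPS29 hold none. Of the 15 named lower genes, KBTBD4, SSX2IP, RPL17-C18orf32, RPSA, THUMPD2, BRI3BP and EEF2KMT hold no ATATAAT, and PCNA-AS1 and RPL21P28 have no annotated 3′ UTR.

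Because ACATTTA was chosen on the 24 h changes, its 24 h values describe that choice and are no further result. The median log2 change at 24 h was -0.09 in 5621 genes with no site, -0.02 in 1090 with 1 site, 0.03 in 332 with 2 sites and 0.09 in 144 with 3 or more. The share at least 1.5-fold higher was 0.516%, 2.11%, 5.72% and 11.8% in the same order. The 48 h pair, which played no part in the ranking, gave medians of -0.00, -0.02, 0.03 and 0.17. In the control 48 h against control 24 h comparison, which shares the control 24 h library, the medians were 0.04, -0.00, -0.08 and -0.17. Of 22 genes at least 2-fold higher at 24 h with a 3′ UTR in the annotation, 18 hold the site, against 21.8% of all genes. These 22 genes took part in choosing the 7-mer, so this count too is no further result.

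3′ UTRs with more sites were longer, with a median of 933 nt without a site and 5962 nt with 3 or more, so genes were also compared within 4 groups of equal number by 3′ UTR length. In the group with the shortest 3′ UTRs the median log2 change at 24 h was 0.03 in 62 genes with a site and -0.07 in 1735 without. In the second group it was 0.02 and -0.10, in the third 0.00 and -0.09, and in the longest -0.02 and -0.10. At 48 h the medians with and without the site were 0.28 and 0.28 in the shortest group, 0.17 and 0.04 in the second, -0.01 and -0.16 in the third and -0.06 and -0.33 in the longest. Outside the values that chose the 7-mer, genes with the site thus had the higher median in 3 of the 4 groups, and no difference was seen in the shortest. Position was examined in the genes whose longest deposited transcript contains the annotated 3′ UTR. Where ACATTTA lay only outside the 3′ UTR (280 genes) the median was -0.09, where it lay nowhere (3387 genes) it was -0.09, and where it lay in the 3′ UTR (791 genes) it was 0.01 at 24 h. At 48 h these medians were 0.01, 0.03 and -0.06, so the order was not seen there. With T added before it, TACATTTA was in 597 genes with a median of 0.04 at 24 h and 0.12 at 48 h, the highest of the 8 possible 1-base extensions at both times.

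For ATATAAT the medians at 24 h were nearly the same whatever the number of sites. Median log2 changes at 24 h were -0.07 in 5754 genes with no site, -0.07 with 1 site, -0.07 with 2 and -0.08 with 3 or more, while the share at least 1.5-fold lower was 0.539%, 1.97%, 2.87% and 1.45%. At 48 h the medians were 0.04, -0.17, -0.35 and -0.46. Within the 4 groups by 3′ UTR length the 48 h medians with and without the site were -0.06 and 0.29 in the shortest, -0.13 and 0.07 in the second, -0.24 and -0.09 in the third and -0.27 and -0.20 in the longest. Genes with a site were thus lower at 48 h in each group, by less in the longest. Over all genes with a 3′ UTR, the 48 h medians with and without ATATAAT were -0.22 and 0.04. They were -0.13 and 0.13 for TTTTTTT and -0.09 and 0.02 for TTCCCAG, so this direction was not particular to ATATAAT. For ACATTTA and TACATTT the medians with and without a site were nearly equal. TTTTTTT and TTCCCAG were not compared within the length groups. None of 2370 human mature microRNAs in the RefSeq table has bases 2 to 8 complementary to any of these 3 7-mers. A match of these letters is a description of the 3′ UTR; whether either siRNA acts on these messages was not tested.

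**Figure D3:**
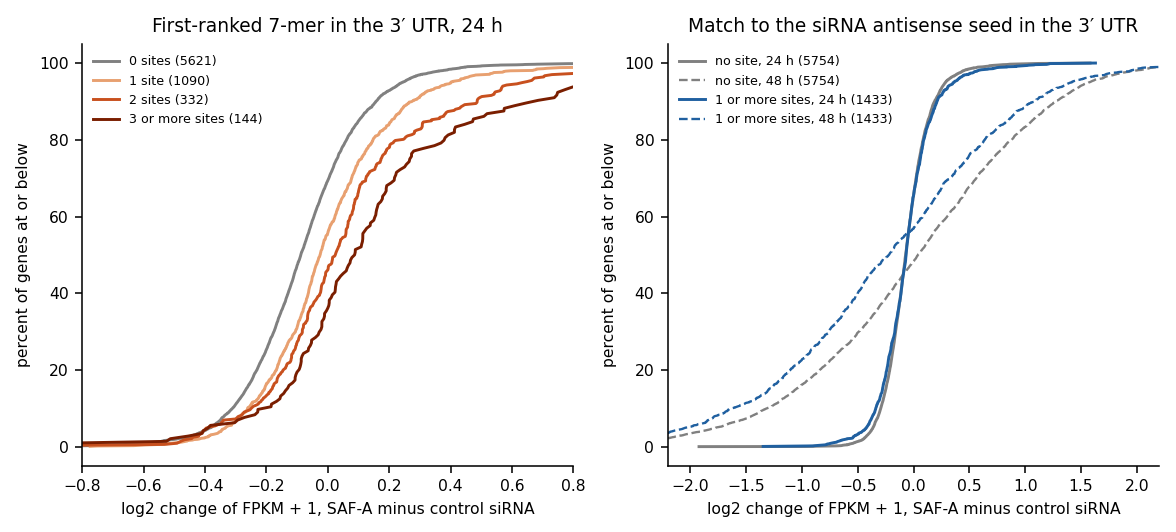
Cumulative percent of genes (y axis) at or below a log2 change (x axis) by sites in the 3′ UTR. Left, 24 h, by number of sites of the 7-mer ranked first among higher genes; the curves shift right from 0 to 3 or more sites (medians -0.09 to 0.09), which describes the choice of the 7-mer. Right, genes with and without the match to the SAF-A siRNA antisense seed, 24 h solid and 48 h dashed. The 24 h curves nearly coincide in their middle and the 48 h curves separate. Some other 7-mers, such as TTTTTTT, also had a lower 48 h median with a site than without.

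Gene lists by function were described by their medians beside the median of all described genes, -0.07. In these bulk libraries fewer cells in a state and less RNA per cell cannot be told apart. S-phase genes, which license, prime and copy DNA, had a median of -0.29, and 38 of 40 members had a log2 change below 0. CDT1, the licensing factor, measured 11.5 and 7.0 FPKM at 24 h and 9.44 and 0.998 at 48 h, and was the only list member at least 1.5-fold lower on the log2(FPKM + 1) scale. TYMS, thymidylate synthase, measured 44.2 and 29.2 FPKM at 24 h and 40.1 and 30.9 at 48 h; its FPKM at 24 h was 66.0% of control and its log2 change of -0.58 was just short of 1.5-fold. The 48 h value of CDT1 with SAF-A siRNA rests on about 3.00 reads. At the other end, the clamp loader subunit RFC5 measured 11.8 and 17.7 FPKM at 24 h and 6.94 and 10.4 at 48 h, and cyclin E2 (CCNE2) measured 13.3 and 17.6 FPKM at 24 h and 9.13 and 1.30 at 48 h. The S-phase list median was -0.86 in the 48 h pair and -0.13 in the control 48 h against control 24 h comparison.

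Mitotic genes, which build the spindle and kinetochore, were nearer to the other genes, with 36 of 44 below 0 and a median of -0.11. The replication-dependent histone genes, whose messages are made in S phase and are not polyadenylated, went the other way from the S-phase list at 24 h, with 42 of 49 above 0 and a median of 0.16. H4C5 measured 636 and 856 FPKM at 24 h and 556 and 157 at 48 h, and H3C6 measured 18.5 and 30.0 at 24 h and 14.6 and 22.3 at 48 h. H3C6 was the only histone gene past 1.5-fold. At 48 h the histone list median was -2.11, so the list was slightly above control at the first time and far below it at the second. Histone messages are short, and with described genes in 5 groups of equal number by spliced length, 48 of the 49 lay in the shortest group.

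Cytosolic ribosomal protein genes had 66 of 79 members above 0 and a median of 0.15 at 24 h. The 48 h pair put the list on the other side, with 25 above 0, 54 below and a median of -0.57. RPS29 and RPL21 were at least 1.5-fold higher and RPSA at least 1.5-fold lower, and RPL21 and RPSA are among the split loci above. Respiratory chain genes had 57 of 74 above 0 and a median of 0.14 at 24 h, and 59 above 0 and a median of 0.82 at 48 h, with NDUFA3, an accessory subunit of complex I, at 18.9 and 31.8 FPKM at 24 h and 34.1 and 120 at 48 h. Of these members, 68 of 79 and 57 of 74 lay in that shortest group (330 to 1586 nt). Its median over all described genes was 0.01, and the medians of the other 4 groups lay between -0.09 and -0.08. That group holds most members of both lists, no comparison at matched length was made, and the part of length in these medians was not tested. Rescaling to TPM put the medians of these lists and of the histone list between -0.04 and -0.02; relative to all described genes they stayed 0.20 to 0.22 higher.

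Genes of bone morphogenetic protein (BMP) and TGF-β signalling feedback had the highest list median, 0.25 over 15 members at 24 h, with 10 above 0. Its median at 48 h was -0.02, with 6 above 0 and 9 below. TGFBR1, the type I TGF-β receptor, measured 4.69 and 9.74 FPKM at 24 h and 1.98 and 11.3 at 48 h, and was the only member past 1.5-fold. ID3, a BMP-induced inhibitor of transcription factors, measured 66.2 and 94.4 FPKM at 24 h and 17 and 22.2 at 48 h. BAMBI, a decoy receptor, measured 10.9 and 8.66 FPKM at 24 h and 13.5 and 11.9 at 48 h. TGFBR1 holds 2 ACATTTA sites. Rescaled to TPM the list median was 0.08.

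Genes of RNA processing were mostly close to the other genes. The SR splicing factors, proteins that recruit the spliceosome to exons, had a median of -0.16 with 17 of 21 below 0, none of them past 1.5-fold. SRSF5 measured 62.6 and 47.2 FPKM at 24 h and 70.1 and 85.8 at 48 h, and the kinase CLK1, which phosphorylates SR proteins, measured 15.0 and 20.0 at 24 h and 23.1 and 39.7 at 48 h. The core spliceosome list had a median of -0.13 over 41 genes, and only SNRPG, an Sm-ring protein, was past 1.5-fold, at 51.1 and 81.5 FPKM at 24 h and 37.7 and 30.0 at 48 h. The 26 hnRNP genes without HNRNPU had a median of -0.08, close to all described genes, between HNRNPDL (59.3 and 44.8 FPKM at 24 h) and PTBP3 (11.8 and 16.5). The 5 described relatives of SAF-A had log2 changes below 0, as had 4968 of all 7613 genes: SAFB2 measured 9.21 and 7.05 FPKM, SAFB 13.6 and 11.7, and HNRNPUL1 26.2 and 23 at 24 h, with log2 changes of -0.34, -0.20 and -0.18.

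Nuclear long noncoding RNAs had a median of -0.00 over 16 members, and none reached 1.5-fold. SNHG12 measured 34.8 and 25.8 FPKM at 24 h and 30.4 and 7.68 at 48 h, and OIP5-AS1 measured 13.3 and 16.7 at 24 h and 12.3 and 7.90 at 48 h. Among nuclear lamina genes the lamin B receptor LBR is listed at 24.0 and 43.5 FPKM at 24 h, but its SAF-A status was not OK and the deposited interval, 0 to 2.31 FPKM, does not hold the listed value, so no direction is read from it. LMNB1, lamin B1, measured 77.4 and 57.9 FPKM at 24 h and 83.8 and 22.9 at 48 h. LMNB1 was low in both SAF-A libraries.

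Interferon response genes, which cells are known to induce on sensing RNA duplexes, were close to the other genes at 24 h. The 20 described members had a median of -0.07, equal to all described genes, with 8 above 0 and 12 below, and none was past 1.5-fold. At 48 h 16 of the 20 were above 0 and the median was 0.36. Both arms received a duplex, so a reaction shared by both is not seen in this comparison. Targets of p53 had a median of -0.02 over 24 genes, between PLK2, a Polo-like kinase, at 283 and 192 FPKM at 24 h, and RRM2B, a ribonucleotide reductase subunit, at 18.9 and 25.5. MDM2, the p53 ubiquitin ligase, measured 46.3 and 32.1 FPKM at 24 h and 44.9 and 35.2 at 48 h.

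Further list members past 1.5-fold were few. CDK6, a G1 cyclin-dependent kinase, measured 11.4 and 22.4 FPKM at 24 h and 7.10 and 16.6 at 48 h. TNRC6A, the Argonaute partner GW182 in RNA silencing, measured 13.6 and 7.80 FPKM at 24 h and 18.9 and 4.90 at 48 h, and holds 2 ATATAAT sites. CRIM1, a transmembrane BMP-binding protein on the YAP target list, measured 162 and 100.2 FPKM at 24 h and 153 and 20.5 at 48 h and also holds 2 ATATAAT sites. JUNB holds 1, and TEAD4, MITF and CDT1 hold none. TEAD4, the DNA-binding partner of YAP, measured 14.7 and 9.45 FPKM at 24 h and 12 and 8.78 at 48 h. JUNB, an AP-1 subunit, measured 7.53 and 4.63 FPKM at 24 h and 8.57 and 1.53 at 48 h, the last on about 3.01 reads. MITF, the transcription factor of pigment cells, measured 8.90 and 5.56 FPKM at 24 h and 9.01 and 4.23 at 48 h. PLAU, the urokinase plasminogen activator on the extracellular matrix list, measured 88.7 and 144 FPKM at 24 h and 160 and 224 at 48 h. Each of these genes had the same order of SAF-A and control siRNA at both times. Sterol synthesis, the ATF4 and unfolded protein response, HSF1 chaperones, lysosome and autophagy, proteasome, NF-κB targets and G1 cyclins had medians that differed from that of all described genes by -0.05 to 0.06, and among them only CDK6 was past 1.5-fold.

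**Figure D4:**
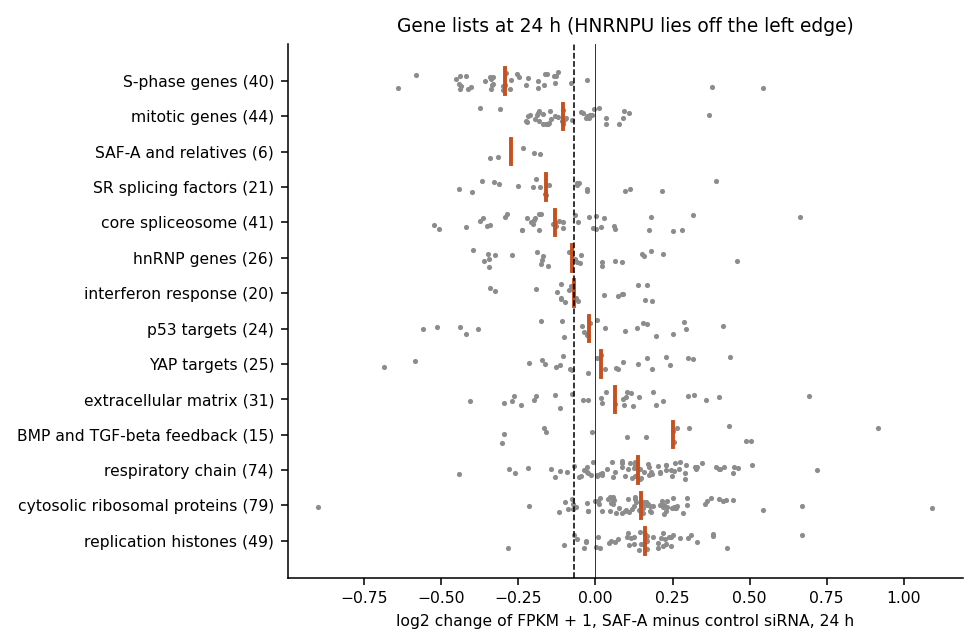
Log2 change at 24 h (x axis) of the members of 14 gene lists, a grey point per gene and an orange bar at the list median; the dashed line is the median of all described genes, -0.07, and the number of members is in brackets. The S-phase list lies left of the dashed line (median -0.29) and the BMP and TGF-β, respiratory chain, ribosomal protein and histone lists lie right of it (0.14 to 0.25).

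General properties of genes went with small differences at 24 h. Across genes, which are not independent replicates, Spearman's rho of the log2 change was -0.19 with GC content of the longest transcript and -0.19 with the number of exons. It was -0.14 with spliced length and 0.14 with mean FPKM. In the 48 h pair the values were 0.06, 0.26, -0.10 and 0.10 in the same order. The signs for GC content and number of exons were thus opposite there. With genes in 5 groups of equal number by GC content, 2.56% were at least 1.5-fold higher in the lowest group, against 0.394% in the highest. The shares at least 1.5-fold lower were 1.18% and 0.723%. The 84 long noncoding RNAs had a median of -0.04 with none at least 1.5-fold higher and 2 lower. By chromosome, the medians lay between -0.11 (chromosome 16) and -0.02 (chromosome X, 233 genes).

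Splicing was examined as the share of each transcript in the FPKM of its gene. The share difference of a gene is the part of its FPKM, from 0 to 1, that sits on different transcripts in the libraries compared. Of 3800 genes that have more than 1 transcript row and reach 5 FPKM in each library, 348 had a share difference of at least 0.3 at 24 h (9.16%). Between the control libraries of 48 h and 24 h, which share the control 24 h library with this comparison, it was 363 of 3793 genes (9.57%), and the median share differences were 0.06 and 0.06. The share of genes with shifted isoform use was therefore no higher between siRNAs than between control times. Of the 348 genes, 165 were also shifted between control times. Genes with transcript rows on alternate haplotype sequences were not left out of either count.

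The genes with the largest shifts differed in which library stood apart. In ACOT9, a mitochondrial acyl-CoA thioesterase, NM_001033583 held 100.0% of FPKM in the control 24 h library and at most 0.165% in the others, where NM_001037171 took its place (1700 and 1727 nt). GNG10, a G protein γ subunit, likewise had 99.8% of FPKM on NM_001017998 in the control 24 h library and 0.0991%, 0.118% and 6.60% in the SAF-A 24 h library and the control and SAF-A libraries of 48 h. In both genes the control 24 h library was alone. In GSPT1, NUSAP1, EWSR1 and TPM3 the share differences were also large in both comparisons, 0.74 to 0.89 between siRNAs at 24 h and 0.70 to 0.89 between control times. TOMM40 had share differences of 0.76 and 0.88. Its transcript values in the control 24 h library lie outside their own deposited intervals, as for NM_001128916 (52.6 FPKM, interval 0 to 3.22). No shift is therefore read from TOMM40. In EWSR1, NM_001163285 held 70.2% in the control 24 h library, 0.187% in the SAF-A 24 h, 0.324% in the control 48 h and 79.2% in the SAF-A 48 h library, so its libraries did not split by siRNA or by time. CHMP1A and ALDH18A1 split by siRNA instead, among 10 genes that were picked for a large shift between siRNAs at 24 h. CHMP1A, an ESCRT-III subunit, had 94.9% of FPKM on NM_001083314 in both control libraries, and 0.0806% and 21.1% in the SAF-A libraries of 24 h and 48 h, with NM_002768 holding 93.5% and 78.9% there. ALDH18A1, the proline synthesis enzyme P5CS, had 100.0% on NM_002860 in both controls and 22.0% and 1.13% in the SAF-A libraries, where NM_001017423 (3457 nt against 3463 nt) held 78.0% and 98.9%. Gene totals of ALDH18A1 were 59.3 and 52.5 FPKM at 24 h. The main transcripts of both genes are close in length (2403 and 2423 nt in CHMP1A). Only reads from the stretches that differ can separate them, and the SAF-A 48 h library is shallow. The number of such reads was not estimated. The same limit holds for ACOT9, GNG10 (1255 and 1252 nt), GSPT1 (7153 and 7150 nt) and EWSR1 (2663 and 2660 nt), so their shifts may lie in the estimation. DAXX, a histone H3.3 chaperone with a share difference of 0.88, has 20 deposited transcript rows, among them copies on alternate haplotype sequences, so its shares cannot be read as splicing.

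**Figure D5:**
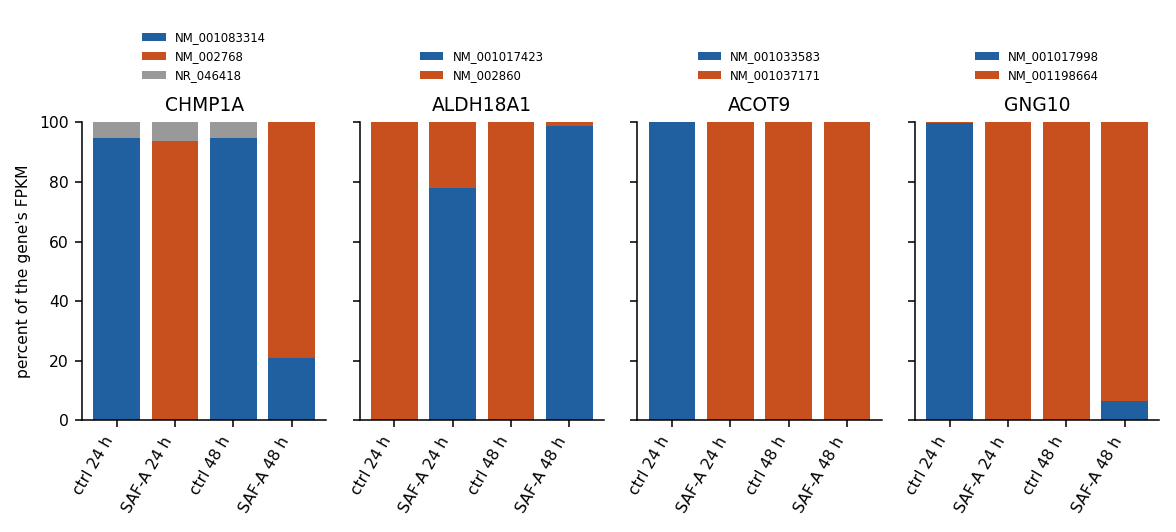
Percent of the FPKM of a gene (y axis) on each deposited transcript in the 4 libraries (x axis), for CHMP1A, ALDH18A1, ACOT9 and GNG10. CHMP1A and ALDH18A1 differ between siRNAs at both times, and in ACOT9 and GNG10 the control 24 h library stands alone.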

How the data were processed

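Total RNA of RPE1 cells, 1 library per condition, was depleted of ribosomal RNA and sequenced as 50-base single-end reads, per the labels' protocols. The authors deposited FPKM per RefSeq transcript with 95% intervals; the submitters' processing notes name TopHat2 2.0.10, Bowtie2 2.1.0, Cufflinks 2.2.1, Cuffdiff and hg19, and their settings are not given in the sources used here. Depth was derived from the coverage and FPKM fields of the deposited transcript files, and read numbers per gene are estimates from it. The tables hold 47338 rows, of which 97.1% matched a symbol in RefSeq's gene table (GRCh38.p14, used for names only).

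FPKM was summed per symbol, and changes are differences of log2(FPKM + 1); the pseudocount of 1 understates changes of low genes. FPKM divides by the library total of reads, so RNAs that take many reads lower all other values. The share of reads in short RNAs was not estimated, and their share of FPKM is not a share of reads. Cufflinks divides reads between overlapping or near-identical transcripts by estimation. Locus totals, which add same-strand rows that share exons, are therefore given beside genes; they and the 7-mer settings were chosen after seeing the data. 3′ UTRs and sequences came from the hg19 reference genome with GENCODE annotation, 1 canonical transcript per gene, and not from reads. Python 3.11.15 and pandas 2.3.3 were used, and the scripts were checked on simulated data.

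Named genes are HNRNPU, the 15 most higher and the 15 most lower genes past 1.5-fold with intervals apart, status OK and a symbol, list members past 1.5-fold with intervals apart, up to 2 extremes at each end of a list, and the 10 genes with the largest isoform shift at 20 FPKM or more. The members and lists were chosen with earlier results of these data known. No test was run, since each group has 1 library. Alternatives were another pseudocount, other level and length thresholds, TPM, centring on the median, and interval overlap.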

Additional observations from a re-analysis of the deposited data

Results flagged for a closer look

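RPS29, KBTBD4 and RPSA stood on opposite sides of control at 24 h and at 48 h; the difference between times was not tested. RPS29 had a log2 change of 1.09 at 24 h and of -1.35 at 48 h (921 and 360 FPKM), where the SAF-A value rests on about 86.3 reads and the deposited intervals did not overlap. KBTBD4 had -1.92 at 24 h and 1.12 at 48 h (0.0805 and 1.35 FPKM), on about 3.62 reads with overlapping intervals. RPSA had -0.90 at 24 h and 1.85 at 48 h (3.53 and 15.3 FPKM), on about 17.6 reads with intervals apart. KBTBD4 and RPSA are rows of split loci. With the overlapping transcripts added, the RPSA locus measured 624 and 608 FPKM at 24 h and 702 and 260 FPKM at 48 h (log2 changes of -0.04 and -1.43), the opposite direction to its row at 48 h. The KBTBD4 locus had log2 changes of 0.01 and -0.20.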

How the results depend on the processing

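The 24 genes at least 2-fold higher became 42 at a mean of 1 FPKM, 6 at 20 FPKM, 49 with no level filter, 14 in TPM, 185 with no length filter and 96 at 1.5-fold. The 9 genes at least 2-fold lower became 28, 2, 36, 18, 123 and 73 under the same settings, and 4 as locus totals. The 348 genes with shifted isoform use became 66 at 20 FPKM and 116 at a share difference of 0.5. The HNRNPU level of 11.4% lay between 10.1% and 12% under all its alternatives. As locus totals the log2 changes of 5 named genes changed sign: TICAM2 -0.023, RPL21P28 0.29, KBTBD4 0.011, CHURC1 0.14 and RPL17-C18orf32 0.10. TPM moved the medians of all 32 lists with described members beyond their limit, and the median of all described genes shifted by -0.17 with them. The other settings moved no list median beyond it. The 7-mer ACATTTA ranked second, after TACATTT, when changes were centred and first in the other settings; ATATAAT ranked 4th among lower genes with short 3′ UTRs and 1244th at 2-fold, where only 4 lower genes had a 3′ UTR. The 24 h and 48 h pairs were not fitted together: a fit of siRNA and time would leave 1 residual degree of freedom, and 1 of the pairs is shallow. With 1216740 reads, the SAF-A library of 48 h limits every 48 h value, and with 1 culture per condition no difference here has a replicate check.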

Other observations

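Glucose-responsive genes on the MondoA list, of which TXNIP is a member, had log2 changes below 0 in 19 of 21 members at 24 h, with a median of -0.14 against -0.07 for all described genes, of which 4968 of 7613 lay below 0. At 48 h the list median was 0.26, with 11 above 0 and 10 below. PFKFB3, which makes the activator of glycolysis fructose 2,6-bisphosphate, measured 7.73 and 5.21 FPKM at 24 h and 7.07 and 4.09 at 48 h. ARRDC3, an arrestin relative of TXNIP, measured 6.69 and 9.61 FPKM at 24 h and 21.3 and 14.5 at 48 h. TXNIP and PFKFB3 were thus low in both SAF-A libraries. ARRDC3 was above control at 24 h and below it at 48 h.

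Extracellular matrix genes had a median of 0.06 over 31 members at 24 h. THBS1, the matricellular protein thrombospondin 1, measured 362 and 478 FPKM at 24 h and 309 and 101 at 48 h. COL4A2, a chain of basement membrane collagen, measured 83.8 and 63.0 FPKM at 24 h and 88.7 and 70.5 at 48 h. THBS1 was above control at 24 h and below it at 48 h, and COL4A2 was below it at both times.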
